A study of Mus musculus with 9 samples.

Results

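The EGF receptor family and its ligands were followed through 4T1 tumors of mice on a low-fat diet (LFD), a high-fat diet (HFD), and HFD with EC359 (HFD + EC359). The members are 9 genes of the 22609 in the count tables, taken by their symbols. They are 3 receptors (Egfr, Erbb2 and Erbb3) and 6 ligands (Areg, Ereg, Hbegf, Tgfa, Btc and Nrg1). Of these, 8 passed the filter on low counts and were tested with 13366 genes in all, and Btc did not pass. 4T1 is a mouse mammary carcinoma line that the labels describe as triple-negative breast cancer (TNBC). The cells were placed in a mammary fat pad of BALB/c hosts that had been fed for 6 weeks, with fat supplying 10% of calories in the LFD and 60% in the HFD, and each diet was kept until the end. The LFD and HFD groups received vehicle (0.3% hydroxypropyl cellulose), and the HFD + EC359 group received EC359, an inhibitor of the leukemia inhibitory factor receptor (LIFR), by intraperitoneal injection (5 mg/kg, 5 days a week). There were 3 libraries in each group, and the sources used here do not say whether each came from a separate tumor. The p-values and SDs below describe the spread between these libraries, which may be technical. The RNA came from unsorted tumor tissue, so it holds the transcripts of the injected line and of the host cells in the tumor, and no treated group on LFD was included. 4T1 is 1 cell line, and all hosts were of 1 strain.

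EGFR, ERBB2 and ERBB3 are receptors at the cell surface that work in pairs. Ligands bind EGFR or ERBB3 and bring the receptors together, and the kinases of EGFR and ERBB2 then start the ERK and PI3K/AKT pathways. ERBB2 has no known ligand of its own and serves as the partner of the others, and ERBB3 has very little kinase activity and passes signals mainly to PI3K. Areg, Tgfa, Hbegf, Ereg and Btc encode ligands of EGFR that are made as membrane proteins and cut free by proteases, and Nrg1 encodes neuregulin 1, the main ligand of ERBB3. The family controls growth of the mammary ducts and of skin, and it is often altered in breast cancer.

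In the mm9 genome, 3 of the ligand genes lie near each other on chromosome 5. These are Ereg (91503643 to 91522675, + strand), Areg (91568641 to 91577458, + strand) and Btc (91786287 to 91832020, - strand). Egfr (16652206 to 16813910) and Erbb2 (98273798 to 98299030) are both on the + strand of chromosome 11, Erbb3 (128006424 to 128026557, - strand) is on chromosome 10, Tgfa (86145245 to 86225443, + strand) on chromosome 6, and Nrg1 (32928500 to 33028675, - strand) on chromosome 8. The counts are sums over all exons of a gene and hold no information on isoforms. No exon of a member overlapped an exon of another gene on the same strand, and exons of Erbb2 overlapped 1810046J19Rik on the opposite strand, which strand-specific counting keeps apart.

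Promoters are shown for 3 members whose level fell together with HFD (Erbb2, Areg and Tgfa) and for Egfr, which did not pass the test there. Of the 9 members, 5 matched the RefSeq promoter table by symbol, and the 250 bases before the gene start are printed in the build of that table, GRCm38.p6. Capitals mark matches on either strand to the STAT motif TTCNNNGAA, the AP-1 motif TGANTCA, the CRE motif TGACGTCA, or the GC box GGGCGG.
Erbb2 (chr11:98412234-98412483, + strand): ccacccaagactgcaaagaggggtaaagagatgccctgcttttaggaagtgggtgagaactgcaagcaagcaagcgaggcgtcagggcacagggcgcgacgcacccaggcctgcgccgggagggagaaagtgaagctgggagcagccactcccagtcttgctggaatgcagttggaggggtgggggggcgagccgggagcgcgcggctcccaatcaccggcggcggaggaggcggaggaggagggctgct
Areg (chr5:91139349-91139598, + strand): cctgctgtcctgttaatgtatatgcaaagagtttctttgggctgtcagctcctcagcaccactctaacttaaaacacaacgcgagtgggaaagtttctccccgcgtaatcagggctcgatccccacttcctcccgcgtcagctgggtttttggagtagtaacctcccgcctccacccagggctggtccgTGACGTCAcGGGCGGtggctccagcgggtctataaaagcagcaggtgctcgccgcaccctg
Tgfa (chr6:86194972-86195221, + strand): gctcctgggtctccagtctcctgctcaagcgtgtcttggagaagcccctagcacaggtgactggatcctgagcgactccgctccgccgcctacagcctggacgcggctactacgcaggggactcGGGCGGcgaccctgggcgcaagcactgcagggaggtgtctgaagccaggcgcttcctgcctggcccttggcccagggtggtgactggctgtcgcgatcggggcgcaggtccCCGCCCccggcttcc
Egfr (chr11:16751953-16752202, + strand): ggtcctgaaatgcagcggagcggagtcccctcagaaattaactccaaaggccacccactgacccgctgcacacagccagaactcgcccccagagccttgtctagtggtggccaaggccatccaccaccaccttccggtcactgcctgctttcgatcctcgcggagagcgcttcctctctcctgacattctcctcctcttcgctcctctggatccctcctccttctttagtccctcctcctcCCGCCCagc

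Areg held 1 match to the CRE motif that begins 61 bases before the gene start, and 508 of 32851 promoters (1.55%) held this motif. The GC box was matched at 1 position in Areg and Egfr and at 2 in Tgfa, as in 32.7% of all promoters. No letters of the STAT motif (7.02% of all promoters) or the AP-1 motif (6.75%) were matched in these 4 windows, and Erbb2 held none of the 4 motifs. No motif was common to Erbb2, Areg and Tgfa. Erbb3 and Hbegf, which also fell with HFD, were not among the 5 members matched to the promoter table and were not searched. These are matches of letters in the reference genome, and binding was not measured.

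The libraries held 5085357 to 6509130 counts in the LFD group, 7314704 to 7922852 in the HFD group, and 8043649 to 9751201 in the HFD + EC359 group. Levels are given as CPM, the counts divided by the scaled library total. For counting error only, a gene without a count may still have had as many as 3, or 0.308 to 0.59 CPM across libraries. The libraries also differed by the GC content of genes. For this, the log2 level of each gene was taken relative to its own mean over the 9 libraries. The mean for genes of 45.8% GC or less, minus that for genes of 55.4% GC or more, was -0.54 to -0.32 in the LFD group. It was 0.10 to 0.16 in the HFD group and 0.25 to 0.30 in the HFD + EC359 group. Among tested members, Erbb2 (57.3% GC in its exons) and Ereg (39.2%) lie beyond these limits and the other 6 between them. Of the genes behind the triple-negative label, Esr1 (the estrogen receptor) had 6.34 to 12.7 CPM and Pgr (the progesterone receptor) 0 to 1.44 CPM over the 9 libraries, and Erbb2 was measured at 72.8 to 109 CPM.

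On a scale that corrects for the length of the transcripts (RPKM, CPM divided by the kilobases of exon), Hbegf, Erbb2 and Tgfa had the highest levels in the LFD group, and Btc and Ereg the lowest in every group. The mean level in the LFD group was 22.2 ± 1.58 RPKM for Hbegf (mean ± SD, n = 3), 21.4 ± 0.375 RPKM for Erbb2, 20.3 ± 0.35 RPKM for Tgfa, 13.2 ± 2.51 RPKM for Areg, 12.1 ± 0.652 RPKM for Egfr, and 9.99 ± 1.15 RPKM for Nrg1. Erbb3 was lower at 4.45 ± 0.479 RPKM, and Btc and Ereg had 0.539 ± 0.293 and 0.186 ± 0.163 RPKM. In this order the libraries of Hbegf and Erbb2, of Areg and Egfr, and of Btc and Ereg overlapped, and the other neighbours did not.

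With HFD the order became Erbb2 (15.5 RPKM), Tgfa (14.5), Hbegf (14.3), Egfr (12.4), Nrg1 (10.3), Areg (8.06), Erbb3 (0.836), Ereg (0.404) and Btc (0.305). Tgfa and Hbegf, Egfr and Nrg1, and Ereg and Btc overlapped there. In the HFD + EC359 group Egfr and Nrg1 stood higher in the order, with Erbb2 at 15.0 RPKM, Egfr at 14.0, Tgfa at 13.1, Nrg1 at 12.1, Hbegf at 11.1, Areg at 7.10, Erbb3 at 2.31, Btc at 0.179 and Ereg at 0.104, and the last 2 were the only neighbours that overlapped. Summed over the 6 ligands, the level was 61.9 to 69.8 RPKM in the LFD group, 46.5 to 49.2 RPKM in the HFD group, and 42.6 to 44.4 RPKM in the HFD + EC359 group. Summed over the 3 receptors, it was 37.4 to 38.8, 28.5 to 28.9, and 30.5 to 31.9 RPKM. These sums are a description of the libraries and were not tested.

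**Figure D1:**
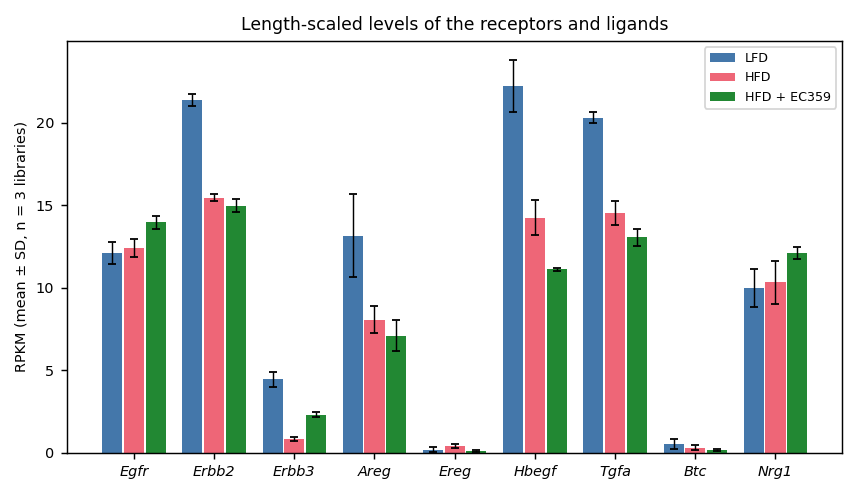
Length-scaled level (RPKM, vertical axis) of each receptor and ligand in the LFD, HFD and HFD + EC359 groups. Bars are means and whiskers SDs over 3 libraries. Erbb2, Hbegf, Tgfa and Areg are highest in the LFD group (Hbegf at 22.2 RPKM against 14.3 and 11.1), and Erbb3 falls to 0.836 RPKM in the HFD group.

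Differences between groups were tested with edgeR, and "rose" and "fell" are used for an adjusted p under 0.05. Genes past the threshold of the study's methods (adjusted p under 0.01 with a fold change larger than 2) were counted separately. In HFD against LFD, 1 of the 8 tested members passed the study threshold (Erbb3), which 5.71% of all tested genes passed. No member rose and 5 fell (Erbb3, Areg, Hbegf, Tgfa and Erbb2), where 26% of all tested genes rose and 25.8% fell. The libraries of the 2 groups did not overlap for 6 of the 8 members (5 of 7 without Ereg), as for 57.1% of all tested genes. The median log2 fold change was -0.47 over the 8 members, -0.48 without Ereg, and 0.01 over all tested genes.

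In HFD + EC359 against HFD, 2 members passed the study threshold (Erbb3 higher and Ereg lower), against 3.43% of all tested genes. Ereg entered the test through its HFD libraries alone, the group where it is highest, and lends the count no support. Over the other 7 members, 1 passed (Erbb3). Erbb3 and Egfr rose and Hbegf fell among them, where 12.7% of all tested genes rose and 13.9% fell. The groups did not overlap for 5 of the 7, as for 41.3% of all tested genes, and the median log2 fold change was -0.05 over the 7 and 0.01 over all tested genes. In HFD + EC359 against LFD, 1 member passed the study threshold (Hbegf, lower), against 5.09% of all tested genes. Egfr and Nrg1 rose and 5 members fell (Erbb3, Areg, Hbegf, Tgfa and Erbb2), where 29.2% of all tested genes rose and 29.1% fell. The groups did not overlap for 7 members, all but Ereg, as for 62.9% of all tested genes. The median log2 fold change was -0.75 over the 8 members, -0.64 without Ereg, and 0.01 over all tested genes. The 3 comparisons share libraries in pairs, so their values are given side by side and are not independent of each other. In bulk tumor tissue, fewer cells of a type and less RNA per cell cannot be told apart.

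**Figure D2:**
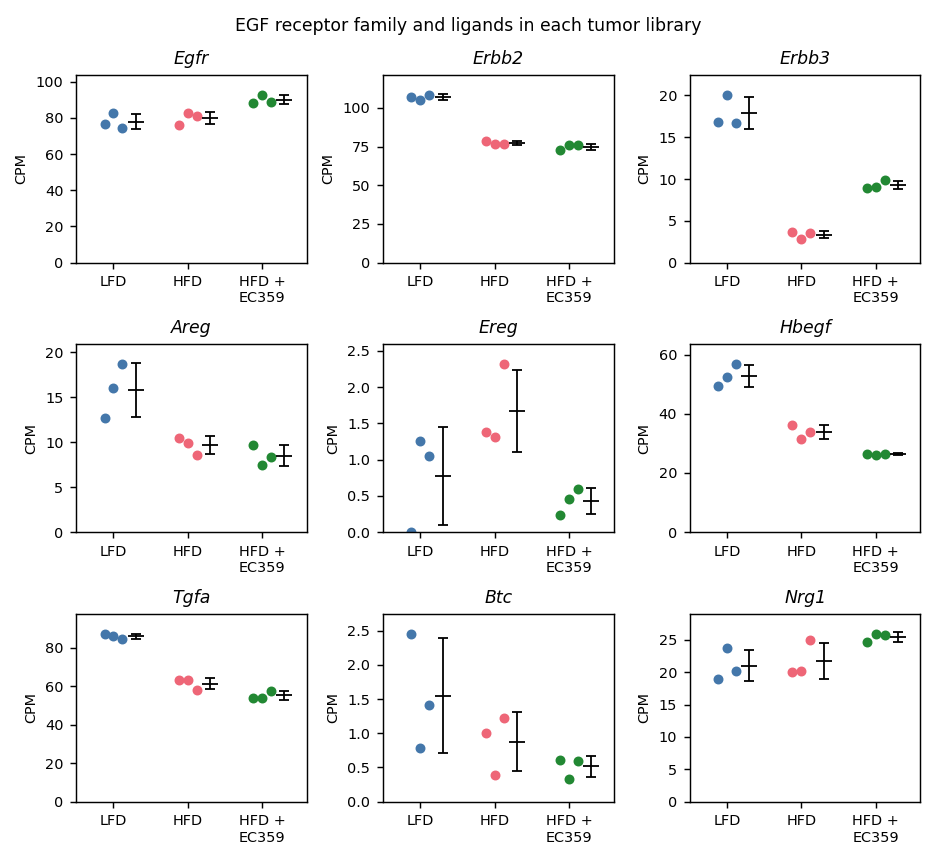
CPM (vertical axis, from 0) of the 9 members in each of the 9 libraries by group. Colored points are libraries, and black marks with whiskers are the mean ± SD of 3 libraries. Erbb3 separates all 3 groups (17.9, 3.36 and 9.30 CPM on average), as does Hbegf (52.8, 33.9 and 26.4 CPM).

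Erbb3, the receptor for neuregulins that feeds PI3K, had the largest difference of the tested members with HFD. It was measured at 16.8, 20.1 and 16.7 CPM in the LFD libraries, at 3.66, 2.88 and 3.54 CPM in the HFD libraries, and at 8.98, 9.03 and 9.90 CPM in the HFD + EC359 libraries. The 3 groups did not overlap, with HFD lowest and HFD + EC359 between the others. With HFD, Erbb3 fell 5.33-fold (log2 fold change -2.41, standard error 0.169, adjusted p = 1.51e-13 by the Benjamini-Hochberg method in edgeR). With EC359 it rose 2.77-fold over HFD (log2 fold change 1.47, standard error 0.179, adjusted p = 8.88e-08, edgeR). It stayed below the LFD level by 1.93-fold (log2 fold change -0.95, standard error 0.134, adjusted p = 3e-07, edgeR). The HFD values rest on 22 to 29 counts per library.

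Most of the tested markers of epithelium moved in the same directions as Erbb3. Of 12 tested genes of the epidermis and squamous epithelium list, 10 fell and 0 rose with HFD, and 0 fell and 11 rose with EC359, with median log2 fold changes of -1.96 and 1.84. Over all tested genes, 25.8% fell with HFD and 12.7% rose with EC359 over HFD. The level of this list, summed over its 12 genes, was 1400 to 1580 CPM with LFD, 199 to 212 CPM with HFD, and 711 to 725 CPM with HFD + EC359. Krt14, a keratin of basal epithelial cells, averaged 762, 40.6 and 237 CPM in the 3 groups in that order, and Krt10, a keratin of differentiating epidermis, averaged 52.6, 54.6 and 52.8 CPM. No gene of this list was at 0 in all libraries of a group.

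Of 9 genes listed for simple and luminal epithelium 5 were tested, and all 5 fell with HFD while 4 rose with EC359. Untested genes of the list, at low counts, did not all follow. In the LFD, HFD and HFD + EC359 groups Krt7 averaged 0.386, 0.479 and 0.667 CPM. Krt19 averaged 1.07, 1.07 and 0.612 CPM, and Cldn3 averaged 0.476, 0.955 and 1.01 CPM. Cdh1 (E-cadherin) averaged 28.5, 5.90 and 19.9 CPM in the 3 groups in that order, and Epcam, an adhesion protein of epithelial cells, averaged 7.39, 1.37 and 5.06 CPM. Krt8, a keratin of simple epithelium, moved less, from 599 CPM in the LFD group to 408 CPM with HFD and 443 CPM with EC359. Summed over its 9 genes, the list had 1120 to 1140 CPM with LFD, 708 to 715 CPM with HFD, and 767 to 797 CPM with HFD + EC359, and Cldn7 was at 0 in all libraries of the last group. The part of these cells in the result for Erbb3 was not tested. Over the 9 libraries, the log2 CPM of Lypd3, Asprv1 and Krt14 were most like those of Erbb3 among 11248 genes (Pearson r = 0.994, 0.992 and 0.991, given as a description over 3 groups of 3 libraries).

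**Figure D3:**
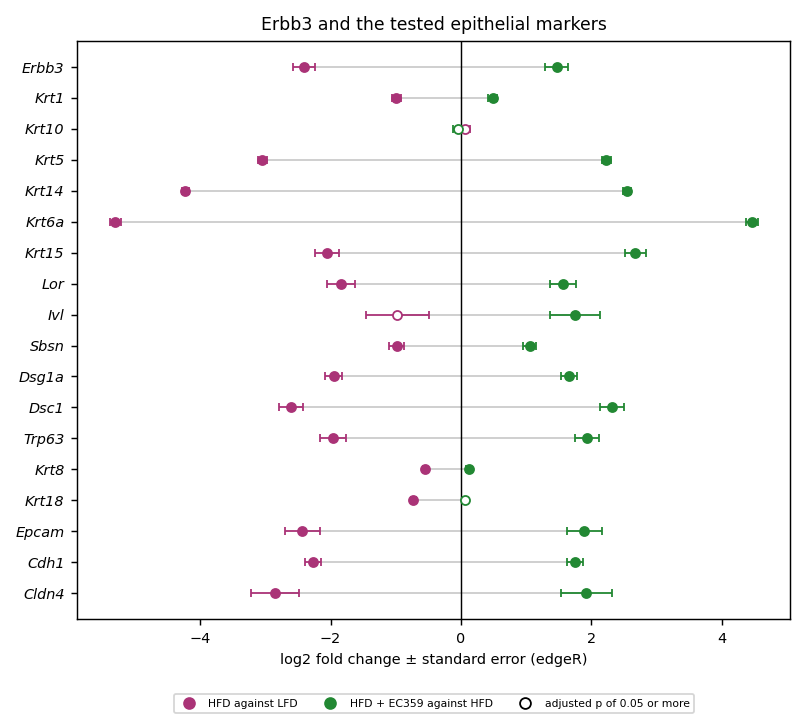
Log2 fold change ± standard error (horizontal axis, edgeR) of Erbb3 and the tested epithelial markers with HFD against LFD (purple) and with HFD + EC359 against HFD (green). Open points have an adjusted p of 0.05 or more. Erbb3 lies at -2.41 and 1.47, and most markers lie on the same sides of 0, with Krt10 near 0 in both comparisons.

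Erbb2, the partner receptor without a ligand, was measured at 107, 105 and 109 CPM in the LFD libraries, at 78.7, 76.8 and 76.7 CPM in the HFD libraries, and at 72.8, 76.1 and 75.9 CPM in the HFD + EC359 libraries. All LFD libraries lay above all others, and the HFD libraries lay just above those with EC359. Erbb2 fell with HFD by 0.46 on the log2 scale (standard error 0.0529, adjusted p = 7.66e-09, edgeR), a 1.38-fold difference. The difference between HFD + EC359 and HFD was -0.05 (95% interval -0.15 to 0.06, adjusted p = 0.567, edgeR). Against LFD, the HFD + EC359 libraries were lower by 1.43-fold (log2 fold change -0.51, standard error 0.0519, adjusted p = 4.18e-10, edgeR). After removing the trend of each library with GC content and length, the log2 fold changes against LFD were -0.28 with HFD (adjusted p = 2.47e-05) and -0.26 with HFD + EC359 (adjusted p = 3.95e-05).

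Egfr, the receptor of most ligands in the family, was measured at 76.9, 82.6 and 74.4 CPM in the LFD libraries, at 76.2, 82.8 and 80.8 CPM in the HFD libraries, and at 88.4, 92.9 and 88.7 CPM in the HFD + EC359 libraries. The LFD and HFD libraries overlapped, and all 3 libraries with EC359 lay above them. The log2 fold change with HFD was 0.03 (95% interval -0.08 to 0.15, adjusted p = 0.669, edgeR). Egfr rose with EC359 by 1.13-fold over HFD (log2 fold change 0.17, standard error 0.0537, adjusted p = 0.0162, edgeR) and by 1.15-fold over LFD (log2 fold change 0.20, standard error 0.0569, adjusted p = 0.00268, edgeR). The first was not called with DESeq2 (adjusted p = 0.0777) nor with HFD replicate 1 (0.115) or HFD + EC359 replicate 2 (0.0899) left out. The second was 0.08 (adjusted p = 0.252) after removing the GC and length trend.

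Hbegf encodes heparin-binding EGF-like growth factor, which binds EGFR and is held at the cell surface by heparan sulfate. It was measured at 49.3, 52.3 and 56.8 CPM in the LFD libraries, at 36.3, 31.3 and 33.9 CPM in the HFD libraries, and at 26.6, 26.2 and 26.5 CPM in the HFD + EC359 libraries. The groups did not overlap and stepped down from LFD to HFD to HFD + EC359. Hbegf fell 1.56-fold with HFD (log2 fold change -0.64, standard error 0.084, adjusted p = 1.15e-07, edgeR) and 1.28-fold more with EC359 (log2 fold change -0.36, standard error 0.0869, adjusted p = 0.002, edgeR). Unlike Erbb3, it did not move back toward the LFD level. HFD + EC359 differed from LFD by 2.001-fold (log2 fold change -1.001, standard error 0.085, adjusted p = 7.6e-12, edgeR), just past the fold change of 2 that the study threshold asks for. The values ranged from -1.04 to -0.93 on the log2 scale in the alternatives, so that this call depends on the setting and the direction did not. Hbegf passed at -1.02 without LFD replicate 2, and did not at -0.95 without LFD replicate 3 or at -0.99 without HFD + EC359 replicate 2. The genes most like Hbegf over the 9 libraries were Ctbp1, Mybl2 and Myo1c (Pearson r = 0.991, 0.988 and 0.987 among 11248 genes, as a description).

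Tgfa encodes transforming growth factor alpha, an EGFR ligand of many epithelial tumors. It was measured at 87.4, 86.2 and 84.4 CPM in the LFD libraries, at 63.2, 63.3 and 57.9 CPM in the HFD libraries, and at 54.0, 54.1 and 57.7 CPM in the HFD + EC359 libraries. The LFD libraries lay above all others, and the HFD + EC359 libraries lay just below the HFD libraries. Tgfa fell 1.40-fold with HFD (log2 fold change -0.48, standard error 0.0617, adjusted p = 7.55e-08, edgeR). The log2 difference between HFD + EC359 and HFD was -0.15 (95% interval -0.27 to -0.03, adjusted p = 0.0637, edgeR). Against LFD the HFD + EC359 group was 1.55-fold lower (log2 fold change -0.64, adjusted p = 1.27e-10, edgeR).

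Areg encodes amphiregulin, the EGFR ligand that drives duct growth in the mammary gland. It was measured at 12.7, 16.0 and 18.7 CPM in the LFD libraries, at 10.5, 9.96 and 8.59 CPM in the HFD libraries, and at 9.70, 7.45 and 8.40 CPM in the HFD + EC359 libraries. All LFD libraries lay above the others, with the widest spread among themselves, and the 2 HFD groups overlapped. Areg fell 1.64-fold with HFD (log2 fold change -0.71, standard error 0.15, adjusted p = 0.00017, edgeR) and was 1.87-fold lower with HFD + EC359 than with LFD (log2 fold change -0.91, standard error 0.149, adjusted p = 4.24e-06, edgeR). The log2 difference between HFD + EC359 and HFD was -0.19 (95% interval -0.49 to 0.11, adjusted p = 0.407, edgeR).

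Ereg, which encodes epiregulin, lies beside Areg on chromosome 5 and had very few counts. It had 0, 8 and 6 counts in the LFD libraries, 11, 10 and 17 in the HFD libraries, and 2, 4 and 6 in the HFD + EC359 libraries, or 0, 1.26 and 1.06 CPM, 1.39, 1.31 and 2.32 CPM, and 0.243, 0.451 and 0.6 CPM. The HFD libraries lay above all others. They were also the only libraries over the limit of the filter on low counts (1.31 CPM before scaling, in at least 3 libraries), so Ereg was tested because it was high there. Ereg was lower with EC359 than with HFD (log2 fold change -1.87, standard error 0.516, adjusted p = 0.0064, edgeR), and the ratio of the summed counts (12 against 38), scaled by library size, was 0.267 with an exact 95% interval of 0.127 to 0.522 for counting error only. In the fit of all genes with at least 1 count, which has no such limit, the adjusted p was 0.00256 (edgeR). That fit uses the same counts and is not separate support. The log2 fold change with HFD was 0.996 (95% interval -0.006 to 1.997, adjusted p = 0.102, edgeR), and that of HFD + EC359 against LFD was -0.87 (95% interval -2.15 to 0.41, adjusted p = 0.255, edgeR). The study threshold was not passed by Ereg in HFD + EC359 against HFD with DESeq2 (adjusted p = 0.0223) or without any 1 of the HFD or HFD + EC359 libraries (adjusted p = 0.0113 to 0.0592 for 5 of them, while it was not tested without HFD replicate 1). The genes most like Ereg over the 9 libraries were 2310008H04Rik, Ints7 and Dcbld1 (Pearson r = 0.952, 0.936 and 0.923 among 11249 genes, as a description), and at such counts these values are loose.

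Btc, which encodes betacellulin, is the third ligand gene of this stretch of chromosome 5 and was not tested. It had 12, 5 and 8 counts in the LFD libraries, 8, 3 and 9 in the HFD libraries, and 5, 3 and 6 in the HFD + EC359 libraries, or 0.339 to 2.46 CPM. The LFD and HFD libraries overlapped, as did the HFD and HFD + EC359 libraries, while all LFD libraries lay above those with HFD + EC359. The ratio of summed counts scaled by library size was 0.592 for HFD over LFD (exact 95% interval 0.312 to 1.11) and 0.591 for HFD + EC359 over HFD (0.276 to 1.23), for counting error only. For HFD + EC359 over LFD it was 0.350 (0.168 to 0.699).

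Nrg1, the ligand of ERBB3, was measured at 19.0, 23.7 and 20.3 CPM in the LFD libraries, at 20.1, 20.2 and 24.9 CPM in the HFD libraries, and at 24.6, 26.0 and 25.8 CPM in the HFD + EC359 libraries. The HFD + EC359 libraries lay above the LFD libraries and overlapped the HFD libraries. The log2 fold change with HFD was 0.03 (95% interval -0.19 to 0.26, adjusted p = 0.815, edgeR), while its receptor gene Erbb3 fell. Nrg1 rose 1.20-fold in HFD + EC359 against LFD (log2 fold change 0.27, standard error 0.108, adjusted p = 0.0332, edgeR), and the difference from HFD was 0.23 (95% interval 0.04 to 0.43, adjusted p = 0.0864, edgeR; 0.34, adjusted p = 0.0218, without HFD replicate 3). The rise against LFD was not called with DESeq2 (adjusted p = 0.0882) or without a single library (0.131 and 0.103 for LFD replicates 1 and 3, 0.0695 and 0.0879 for HFD + EC359 replicates 2 and 3).

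**Figure D4:**
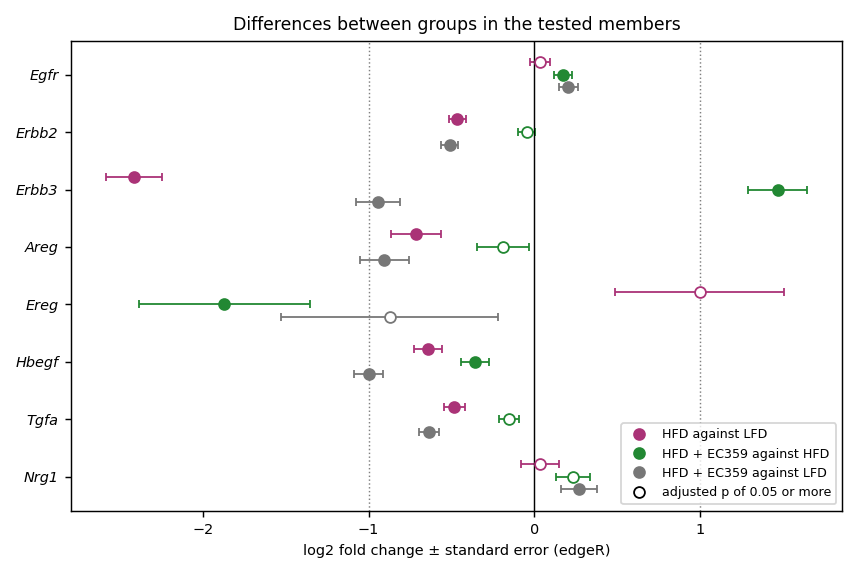
Log2 fold change ± standard error (horizontal axis, edgeR) of the 8 tested members in the 3 comparisons. Filled points have an adjusted p under 0.05, and dotted lines mark a fold change of 2. With HFD the filled points lie below 0 (Erbb3 at -2.41, Areg at -0.71), and with EC359 over HFD they lie on both sides (Erbb3 at 1.47, Hbegf at -0.36). Ereg, at -1.87 with EC359 over HFD, entered the test through its HFD libraries alone.

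The remaining genes of the family were at low levels. Erbb4, the remaining receptor of the family, had at most 1 count in a library, and the ligand gene Nrg3 was at 0 in all 9 libraries. Of the list of 6 further receptors and ligands, Egf and Nrg2 were tested and neither passed the test in any comparison. Without the GC and length trend, Nrg2 did with HFD (0.82, adjusted p = 0.0229) and with HFD + EC359 against LFD (1.02, adjusted p = 0.00295). Without LFD replicate 1 it passed as well in both (0.85, adjusted p = 0.0348, against 0.52 with all libraries, and 0.91, adjusted p = 0.0167, against 0.59), as it did in the second without HFD + EC359 replicate 3 (0.83, adjusted p = 0.0174). Nrg2, a further neuregulin, had the highest level of them at 2.68 ± 1.06 CPM with LFD, 3.75 ± 0.532 CPM with HFD and 3.99 ± 1.20 CPM with HFD + EC359. Epgn and Nrg4, both ligand genes, had at most 9 and 3 counts in a library.

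Ligands are cut from the membrane by ADAM proteases, which iRhom proteins assist and Timp3 inhibits. Of 9 genes for ligand shedding, 3 rose and 3 fell with HFD, with a median log2 fold change of -0.01 (2 rose and 1 fell without the GC and length trend), and 1 rose and 3 fell with EC359 relative to HFD, with a median of -0.10. Against LFD, 2 rose and 3 fell in the HFD + EC359 group. Of all tested genes, 26% rose and 25.8% fell with HFD, 12.7% and 13.9% with EC359 relative to HFD, and 29.2% and 29.1% against LFD. Without the GC and length trend, 2694 of all 13366 tested genes rose and 3030 fell with HFD. Adam12, a protease that can release HB-EGF, averaged 15.2 ± 2.36 CPM with LFD, 32.4 ± 1.28 CPM with HFD, and 14.5 ± 1.29 CPM with HFD + EC359. It rose with HFD (log2 fold change 1.08, adjusted p = 1.03e-09, edgeR) and fell with EC359 (log2 fold change -1.16, adjusted p = 5.96e-11, edgeR), and without LFD replicate 3 the first was 0.998, just short of a fold change of 2.

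Timp3 averaged 15.1 ± 0.458, 31.4 ± 2.15 and 21.1 ± 1.70 CPM in the LFD, HFD and HFD + EC359 groups. It rose with HFD (log2 fold change 1.06, adjusted p = 8.04e-10, edgeR) and fell with EC359 (log2 fold change -0.58, adjusted p = 8.91e-06, edgeR), while it stayed above LFD (0.48, adjusted p = 0.000542, edgeR). Without the GC and length trend the value with HFD was 0.91 (adjusted p = 9.69e-09), under the study threshold. Both genes are also expressed by fibroblasts. The 8 fibroblast markers all rose with HFD, and 5 fell and 1 rose with EC359. They summed to 7540 to 8990 CPM with LFD, 13200 to 14000 CPM with HFD, and 3690 to 3790 CPM with HFD + EC359. Most of this sum is Col1a1, Col1a2 and Col3a1, with Col1a1 at 4212, 6870 and 1613 CPM on average. In HFD + EC359 against LFD, 3 markers rose and 4 fell, where 29.2% and 29.1% of all tested genes did. Dcn averaged 27.3, 76.2 and 69.9 CPM in the 3 groups, and Pdgfra 323, 375 and 476 CPM. Over all tested genes, 26% rose with HFD and 13.9% fell with EC359 over HFD. No fibroblast marker was at 0 in all libraries of a group, and their part in the results for Adam12 and Timp3 was not tested. Adam15, the gene of this list with the highest RPKM, averaged 221, 179 and 163 CPM and fell with HFD (log2 fold change -0.30, adjusted p = 1.2e-06, edgeR). It fell with EC359 as well (log2 fold change -0.14, adjusted p = 0.0193, edgeR), but without the GC and length trend neither was called (-0.04, adjusted p = 0.451, and -0.06, adjusted p = 0.3). The second was also not called with library totals (adjusted p = 0.0674) or without a single library (0.0683 and 0.0932 for HFD replicates 1 and 2, 0.0649 and 0.0851 for HFD + EC359 replicates 1 and 3). Adam17, the main sheddase of Areg and Tgfa, is named here after its values were seen, and it averaged 169, 168 and 175 CPM without a change that passed the test.

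Of 13 genes for inhibitors and turnover of the receptors, 12 were tested, and 4 rose and 6 fell with HFD, with a median log2 fold change of -0.16, and without the GC and length trend 1 rose and 5 fell. With EC359 relative to HFD 1 rose and 1 fell, and against LFD 3 rose and 4 fell in the HFD + EC359 group. The shares over all tested genes were 26% and 25.8%, 12.7% and 13.9%, and 29.2% and 29.1% in these 3 comparisons. With HFD and without the GC and length trend, 2694 of all 13366 tested genes rose and 3030 fell. Lrig1, a membrane protein that promotes loss of the receptors, had the highest RPKM and averaged 428, 396 and 435 CPM. It fell slightly with HFD (log2 fold change -0.11, adjusted p = 0.013, edgeR) and rose with EC359 (0.13, adjusted p = 0.00531, edgeR). Without the GC and length trend the value with HFD was 0.02 (adjusted p = 0.755), and the fall was also not called with library totals (0.122) or without HFD replicate 2 (0.0678), nor the rise without HFD + EC359 replicate 1 (0.0681). Errfi1, a feedback inhibitor of the EGFR kinase chosen after its values were seen, averaged 137 ± 1.83 CPM with LFD, 204 ± 1.76 CPM with HFD and 139 ± 4.09 CPM with HFD + EC359. It rose with HFD (log2 fold change 0.58, adjusted p = 1.22e-12, edgeR) and fell with EC359 (-0.55, adjusted p = 1.88e-12, edgeR).

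All 30 genes for receptor adaptors and signal relay were tested. With HFD 10 rose and 11 fell, with a median log2 fold change of -0.03. With EC359 relative to HFD 4 rose and 8 fell, and relative to LFD 10 rose and 11 fell. The shares over all tested genes were 26% and 25.8%, 12.7% and 13.9%, and 29.2% and 29.1% in these 3 comparisons. Without the GC and length trend, 4 rose and 7 fell with HFD, where 2694 and 3030 of all 13366 tested genes did. Grb7, an adaptor that binds ERBB2 and ERBB3, passed the study threshold in both steps of the fit to all 9 libraries. It entered the test through its 3 LFD libraries and 1 of the HFD + EC359 libraries, and none of the HFD group was over the limit of the filter. In the fit to the 6 HFD and HFD + EC359 libraries it was not tested. It had 10 to 15 counts per library in the LFD group, 1 to 3 in the HFD group and 9 to 14 in the HFD + EC359 group. The ratio of its summed counts, scaled by library size, was 0.117 for HFD over LFD (6 against 38 counts, exact 95% interval 0.0403 to 0.278) and 4.79 for HFD + EC359 over HFD (34 against 6 counts, 1.99 to 14), for counting error only. Its adjusted p was 8.41e-06 with HFD and 0.00225 with EC359 (edgeR), and the second was 0.0147 with DESeq2 and 0.0124, 0.019 and 0.0148 without HFD replicate 2, HFD replicate 3 and HFD + EC359 replicate 3. Akt1, the kinase below PI3K and the gene of this list with the highest RPKM, averaged 721, 524 and 458 CPM and fell with HFD (log2 fold change -0.46, adjusted p = 1.9e-12, edgeR) and with EC359 (-0.20, adjusted p = 7.16e-05, edgeR). Without the GC and length trend, these values were -0.19 (adjusted p = 4.05e-06) and -0.12 (adjusted p = 0.00373) on the log2 scale.

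Of 22 feedback and target genes of ERK, 1 rose and 12 fell with HFD, with a median log2 fold change of -0.12, and without the GC and length trend 3 rose and 8 fell. With EC359 relative to HFD 3 rose and 7 fell, with a median of -0.04, and relative to LFD 3 rose and 12 fell, with a median of -0.22. The shares over all tested genes were 26% and 25.8%, 12.7% and 13.9%, and 29.2% and 29.1% in these 3 comparisons. With HFD and without the GC and length trend, 2694 of all 13366 tested genes rose and 3030 fell. Egr3, an immediate early transcription factor, was the 1 gene of the list past the study threshold. It had 15 to 30 counts per library in the LFD and HFD groups and averaged 5.13 ± 0.693, 2.46 ± 0.708 and 4.29 ± 0.967 CPM in the LFD, HFD and HFD + EC359 groups. It fell with HFD (log2 fold change -1.05, standard error 0.269, adjusted p = 0.00144, edgeR) and rose with EC359 (0.82, standard error 0.253, adjusted p = 0.0144, edgeR). Egr3 did not pass the study threshold with HFD after removing the GC and length trend (-0.75, adjusted p = 0.0222) or without LFD replicate 1 (-0.95), HFD replicate 1 (-0.96) or HFD replicate 2 (-0.92). The rise with EC359 was not called with DESeq2 (adjusted p = 0.0541) or without HFD replicate 1 (0.0748), HFD replicate 2 (0.0869) or HFD + EC359 replicate 3 (0.114). Ccnd1 (cyclin D1), the gene of this list with the highest RPKM, averaged 1087 ± 10.8, 958 ± 17.2 and 860 ± 3.61 CPM and fell at each step (log2 fold change -0.18, adjusted p = 5.1e-06, and -0.16, adjusted p = 0.000124, edgeR).

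**Figure D5:**
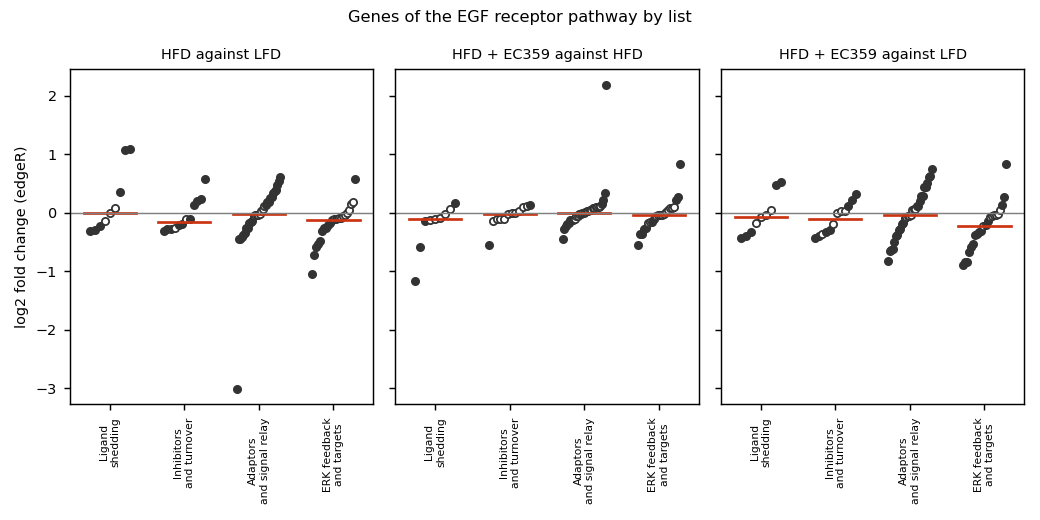
Log2 fold change (vertical axis, edgeR) of each tested gene in 4 lists of the pathway, sorted within a list, for the 3 comparisons. Filled points have an adjusted p under 0.05, and red lines are list medians. The medians lie between -0.22 and 0, and the points farthest from 0 are Grb7 (-3.02 with HFD and 2.19 with EC359 over HFD).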

How the data were processed

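Total RNA of tumor tissue was sequenced in 9 stranded mRNA libraries (3 per group) with paired reads. The sources used here do not say whether each library came from a separate tumor, so p-values measure the spread between these libraries, which may be technical. Per the file headers, the authors made expected counts per gene with featureCounts 1.5.0-p1 on mm9, with reverse-strand counting, a minimum mapping quality of 2, and read pairs over several genes or positions split into fractions. The deposited values are not normalized. The submitters' processing notes name HISAT2 2.1.0 and the study's methods TopHat2 and HTSeq, so the aligner is not settled here. Splitting reads can blur genes with near-identical copies.

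Counts were rounded to whole numbers, which gave 5085357 to 9751201 per library. Fractions made up 1.19% to 3.55% of the genes in a library. Groups were taken from the sample titles. In R 4.3.3, edgeR 4.0.16 filtered genes with filterByExpr by group (13366 of 22609 kept), scaled libraries with TMM factors, and fitted the 3 groups in 1 quasi-likelihood model with Benjamini-Hochberg adjustment over all tested genes. CPM and RPKM use the TMM-scaled totals, and log2 CPM for likeness used a prior count of 2 and genes of at least 5 CPM. A single gene tested alone with 3 against 3 libraries cannot reach a two-sided exact permutation p below 0.1. The coefficient of variation that edgeR calls biological was 3.63%, and it describes these libraries. Within a group, pairs of libraries had a mean chi-square per gene of 1.35 to 2.99, where counting error only would give about 1. Whether the libraries came from separate tumors was not tested. The steps were tested on simulated data. The alternatives were DESeq2 1.42.0, RLE factors, library totals, all genes with at least 1 count, at least 10 counts in every library, the 6 libraries of a comparison, a replicate block, removal of each library's GC and length trend, other thresholds, and each library left out in turn. The fit with the GC trend and the block together was chosen after seeing the data.

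The members and lists were chosen with earlier results of these data known. Besides the members, the genes named are those of a pathway list past the study threshold (at most 4 per list), the gene of each list with the highest RPKM, and the 3 genes most like each member past the study threshold. The other pathway genes and the marker genes that are named were chosen after their values were seen. Sequences are from RefSeq (GRCm38.p6).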

Additional observations from a re-analysis of the deposited data

How the results depend on the processing

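The number of members past the study threshold (1 with HFD, 2 with EC359 over HFD, 1 with HFD + EC359 over LFD) depended on genes near it. For EC359 over HFD it was 1 with DESeq2, 1 with at least 10 counts in every library, 4 at an adjusted p under 0.05, 0 at an absolute log2 fold change of at least 2, and 1 to 2 with a library left out. The member lost with DESeq2 or a library left out was Ereg, which the filter of 10 counts removes. For HFD over LFD it was 5 at an adjusted p under 0.05. For HFD + EC359 over LFD it was 0 with library totals, 0 with all genes of at least 1 count, 0 with at least 10 counts, 0 at an absolute log2 fold change of at least 2, 2 without the GC and length trend, 2 when the replicate block was added to that, 7 at an adjusted p under 0.05, and 0 to 2 with a library left out. Hbegf is at the limit of a fold change of 2. The member gained was Areg without the GC and length trend, with or without the block, and without LFD replicate 1 or HFD + EC359 replicate 1. It was Erbb3 (-1.003) without HFD + EC359 replicate 3 and Btc (-1.85, adjusted p = 0.00481), which then passed the filter, without LFD replicate 2. The members at an adjusted p under 0.05 for EC359 over HFD numbered 2 to 5 with a library left out, with 2 without HFD replicate 1.

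Values near 0 changed sign. The log2 fold change of Egfr with HFD was -0.0918 without the GC and length trend, -0.0888 with the replicate block added, and -0.00217 to 0.0749 with a library left out (below 0 without LFD replicate 3). Nrg1 with HFD was -0.076 to 0.134 with a library left out (below 0 without LFD replicate 1 or HFD replicate 3). Erbb2 with EC359 over HFD was 0.0191 without the GC and length trend and 0.0177 with the block added. Tgfa for EC359 over HFD passed an adjusted p of 0.05 in 4 settings (lowest 0.0364). The falls of Erbb3, Areg, Hbegf, Tgfa and Erbb2 against LFD and the rise of Erbb3 with EC359 kept their direction and their side of an adjusted p of 0.05 in all 18 alternatives. The cause of these dependences was not tested.

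Replicate numbers did not pair the libraries (r = -0.0297 to 0.017 over 9 pairs of the same number in different groups), and with a replicate block the members past the study threshold numbered 1, 2 and 1 as without it. Library totals raised the median log2 fold change of all genes to 0.05, 0.04 and 0.09 and moved the genes that rose and fell from 3473 and 3452 to 3947 and 2967 with HFD, from 1697 and 1852 to 2096 and 1495 with EC359 over HFD, and from 3900 and 3887 to 4676 and 3149 with HFD + EC359 over LFD. Without the GC and length trend, these were 2694 and 3030, 1381 and 2128, and 2858 and 3733. With at least 10 counts in every library, 356, 211 and 418 genes passed the study threshold instead of 763, 459 and 680, and without the GC and length trend 417 did in the last comparison. Depth limits Ereg and Btc, with at most 17 and 12 counts per library. Btc, when tested among all genes with at least 1 count, had log2 fold changes of -0.75, -0.74 and -1.49 (adjusted p = 0.266, 0.438 and 0.0176).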

Other observations

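Markers of other host cells in the same libraries are given as values. Over all tested genes, 26% rose and 25.8% fell with HFD, and 12.7% rose and 13.9% fell with EC359 over HFD. The 6 endothelial markers all rose with HFD, from 367 to 397 CPM in sum in the LFD group to 591 to 621 CPM, and 4 fell with EC359, to 532 to 545 CPM. The 5 macrophage markers summed to 1160 to 1210, 1020 to 1040 and 1260 to 1290 CPM in the LFD, HFD and HFD + EC359 groups, and 5 neutrophil markers to 98.4 to 119, 126 to 136 and 159 to 165 CPM. The macrophage sum does not stand for each gene. With HFD 3 of these markers rose and 2 fell, Mrc1 from 567 to 443 CPM and Cd163 from 283 to 198 CPM on average. With EC359 over HFD 4 rose and 0 fell. T cell markers summed to 9.82 to 13.6, 8.12 to 9.33 and 12.8 to 14.9 CPM, with Cd4 as the largest part (6.31, 4.20 and 7.25 CPM on average). Of the 3 T cell markers tested, 0 rose and 1 fell with HFD, and 1 rose and 0 fell with EC359 over HFD. Cd8a, at low counts, went the other way with HFD and averaged 0.724, 1.43 and 1.88 CPM. Adipocyte markers summed to 8.11 to 10, 21.4 to 25.3 and 22.3 to 26 CPM. The adipocyte sum is mostly Fabp4, which averaged 6.21, 19.98 and 19.43 CPM in the 3 groups, while Adipoq averaged 0.356, 0.521 and 0.415 CPM. Of the 3 adipocyte markers tested, 1 rose and 0 fell with HFD. The 6 skeletal muscle markers had a highest sum of 126, 133 and 106 CPM, and Schwann cell markers 30.8 to 37.4, 31.7 to 35.7 and 30.2 to 33.8 CPM. Within the muscle sum, Myh4 averaged 35.2, 50.5 and 18.2 CPM and Myh1 went the other way at 27.9, 12.7 and 36.7 CPM.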
